A study of Mus musculus with 2 samples.

Results

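The cytosolic ribosomal protein genes were taken by name from long-read RNA sequencing of the mouse adrenal gland. A gene was included if it was annotated, protein-coding, named Rpl or Rps with a number (or Rplp0, Rplp1, Rplp2 or Rpsa), and had at least 1 read in either library. The rule found 82 genes, 32 of the small subunit and 50 of the large subunit, among 16400 annotated genes with reads, of which 13668 were protein-coding. Replicate 1 had reads on 81 of them and replicate 2 on 82. Of the other genes with matching names, Rpl10l and Rpl39l are protein-coding but had 0 reads in both libraries, and Rps4l, Rps12l1 and Rps3a2 had reads but are annotated as pseudogenes.

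The RNA was total RNA from adrenal glands of female B6CASTF1/J mice, a cross of the C57BL/6J and CAST/EiJ strains, taken at 25 days of age with no treatment named. Both libraries belong to 1 group and are numbered as biological replicates 1 and 2. The tissue descriptions name a separate animal for each replicate, whereas both library descriptions name the animal of replicate 1 and both libraries carry the same donor entry. Whether the SDs below describe the spread between separate animals is therefore uncertain. No condition could therefore be compared: the tests below compare the libraries of replicates 1 and 2. They cover counting error only, because with 1 library per replicate the spread between libraries cannot be estimated. Reads without molecular identifiers are also not independent molecules, so even counting error may be covered only in part. In each library 1 long read stands for 1 transcript, and levels are given in CPM, a gene's reads after scaling each library's reads on annotated genes to a sum of 1000000. The library of replicate 1 held 397176 such reads and that of replicate 2 held 712032. The limit for a gene with 0 reads was set at 3 reads, or 7.55 CPM in replicate 1 and 4.21 CPM in replicate 2. Markers of the adrenal cortex took 6.69% of reads in replicate 1 and 6.10% in replicate 2, and those of the medulla 1.09% and 1.19%. The kidney genes Umod, Kap and Slc34a1 had 0 reads in both libraries. The 3 liver genes Alb, Apoa1 and Ttr had 32, 23 and 15 reads in replicate 1, against 1, 0 and 0 in replicate 2, and all 3 passed the test between libraries described below. The part of liver RNA in the values of replicate 1 was not tested.

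Ribosomal proteins assemble with ribosomal RNA in the nucleolus into a small subunit, which reads the mRNA, and a large subunit, which joins amino acids. Their mRNAs are among the most abundant in most cells, usually begin with a run of pyrimidines that couples their translation to growth signals, and are spliced from short genes whose introns often hold small nucleolar RNAs. Reverse-transcribed copies of these mRNAs are scattered through mammalian genomes as processed pseudogenes, which resemble the mRNA but lack its introns.

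Stretches near the start are shown for 5 members of the large subunit, chosen by level among the members that hold the motif searched. A pyrimidine-rich start is the feature by which these mRNAs are recognised as a class. Each line gives 30 bases 5′ to 3′ near the start that RefSeq gives in the build GRCm38.p6, with the motif searched, CTTTCC, in capitals. The motif begins at the RefSeq start in Rpl38, 9 bases after it in Rpl13a and 25 bases after it in Rpl26, whose printed stretch therefore lies wholly after the start; in Rpl4 and Rpl35 it begins before the start. They lie at chr9:64173360-64173389 (+) for Rpl4, chr7:45128717-45128746 (−) for Rpl13a, chr2:39005117-39005146 (−) for Rpl35, chr11:114668570-114668599 (+) for Rpl38 and chr11:68901581-68901610 (+) for Rpl26.
Rpl4: agtgacaagtCTTTCCttttcctgtgggag
Rpl13a: agacctcctcCTTTCCcaggcggctgccga
Rpl35: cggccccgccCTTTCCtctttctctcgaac
Rpl38: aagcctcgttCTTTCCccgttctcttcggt
Rpl26: gtgtagttctCTTTCCttttgcggccatcg
Between 30 bases before and 50 after the RefSeq start, the strand of the gene held CTTTCC in 16 of the 62 members with a window (25.8%) and in 983 of 26963 other genes (3.65%). On the opposite strand the same motif stood in 2 of the 62 members (3.23%) and in 942 of the others (3.49%). A match is a stretch of letters and not a measured start: the deposited annotated models carry the annotated starts, so the first base of the reads was not used.

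The members together made up 3.85% ± 0.163 of the reads on annotated genes (SD, n = 2): 3.73% for replicate 1, with a 95% Wilson interval of 3.68 to 3.79, and 3.96% for replicate 2, with an interval of 3.92 to 4.01. In bulk tissue, fewer cells of a type and less RNA per cell cannot be told apart. Genes of the large subunit took 2.36% in replicate 1 and 2.51% in replicate 2, and genes of the small subunit 1.37% and 1.46%. The median member had 413 CPM over both libraries, against 18.2 CPM for the other protein-coding genes. The quartiles of the members were 268 and 593 CPM, and the medians of the subunits were 409 CPM for the small and 418 CPM for the large. In both libraries 74 members exceeded 100 CPM. Across the 82 members the levels of the libraries had a Pearson's r of 0.985 on the log2(CPM + 1) scale and a Spearman's rho of 0.981. These values run across genes within the same libraries and are given as a description.

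Rpl41, which encodes the shortest protein of the ribosome (ENSMUSG00000093674.7, chr10:128548114-128549305, − strand), was among the 12 highest members, with 636 reads in replicate 1 and 1228 in replicate 2, or 1663 ± 87.2 CPM. Rplp0, the base of the ribosomal stalk that recruits translation factors (ENSMUSG00000067274.10, chr5:115559467-115563727, + strand), had 506 and 927 reads, or 1288 ± 19.7 CPM. Rpl13 had 399 and 744 reads and 1025 ± 28.5 CPM. In the order Rpl41, Rplp0, Rpl13 and Rpl4, each gene was above the next in both libraries, with no overlap. Rpl4, whose protein lines the tunnel through which the new chain leaves, had 384 and 597 reads (903 ± 90.8 CPM). Its level did not separate from those of Rpl3, Rpl13a, Rps14 and Rps28, which lay between 865 ± 83.7 CPM for Rps28 and 895 ± 65.4 CPM for Rpl3. Rpl6 (740 ± 28.1 CPM), Rpl35 (736 ± 86.9 CPM) and Rpl19 (728 ± 22.5 CPM) also belong to the 12 highest. Of the 12, 10 belong to the large subunit and 2, Rps14 and Rps28, to the small subunit.

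The 12 highest held 33.7% of member reads in replicate 1 and 33.6% in replicate 2. Over the whole order, 11 of 81 pairs of neighbours did not overlap between libraries. The order also depends on the scale. Divided by the length of the reads' models in kilobases, 5 of these 12 stayed among the 12 highest, and Rpl41, Rps28, Rpl38 and Rps27 followed each other near the top. Counted in annotated transcripts only, 11 of the 12 stayed. The order above counts reads on the gene itself, without the processed copies described below. With reads on copies added, Rpl3 stood at 1328 CPM on average, beside Rplp0 at 1322 CPM. The small-subunit genes Rps6 (892 CPM) and Rps19 (878 CPM) then stood above Rpl6 (829 CPM) and Rpl35 (749 CPM).

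At the low end, Rpl3l, a paralog of Rpl3 known from striated muscle, had 0 reads in replicate 1 and 2 in replicate 2. Rpl21 had 5 reads in replicate 1 and 14 in replicate 2, Rpl17 had 7 and 11, and Rpl10, which completes the large subunit late in its maturation, had 13 and 19. Rpl30 had 28 and 37 reads, Rpl12 of the stalk base 28 and 67, Rpl7a 35 and 65, and Rps12 36 and 78. Of these 8 genes 7 lay under 100 CPM on average, while the median member had 158 reads in replicate 1 and 313.5 in replicate 2.

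**Figure D1:**
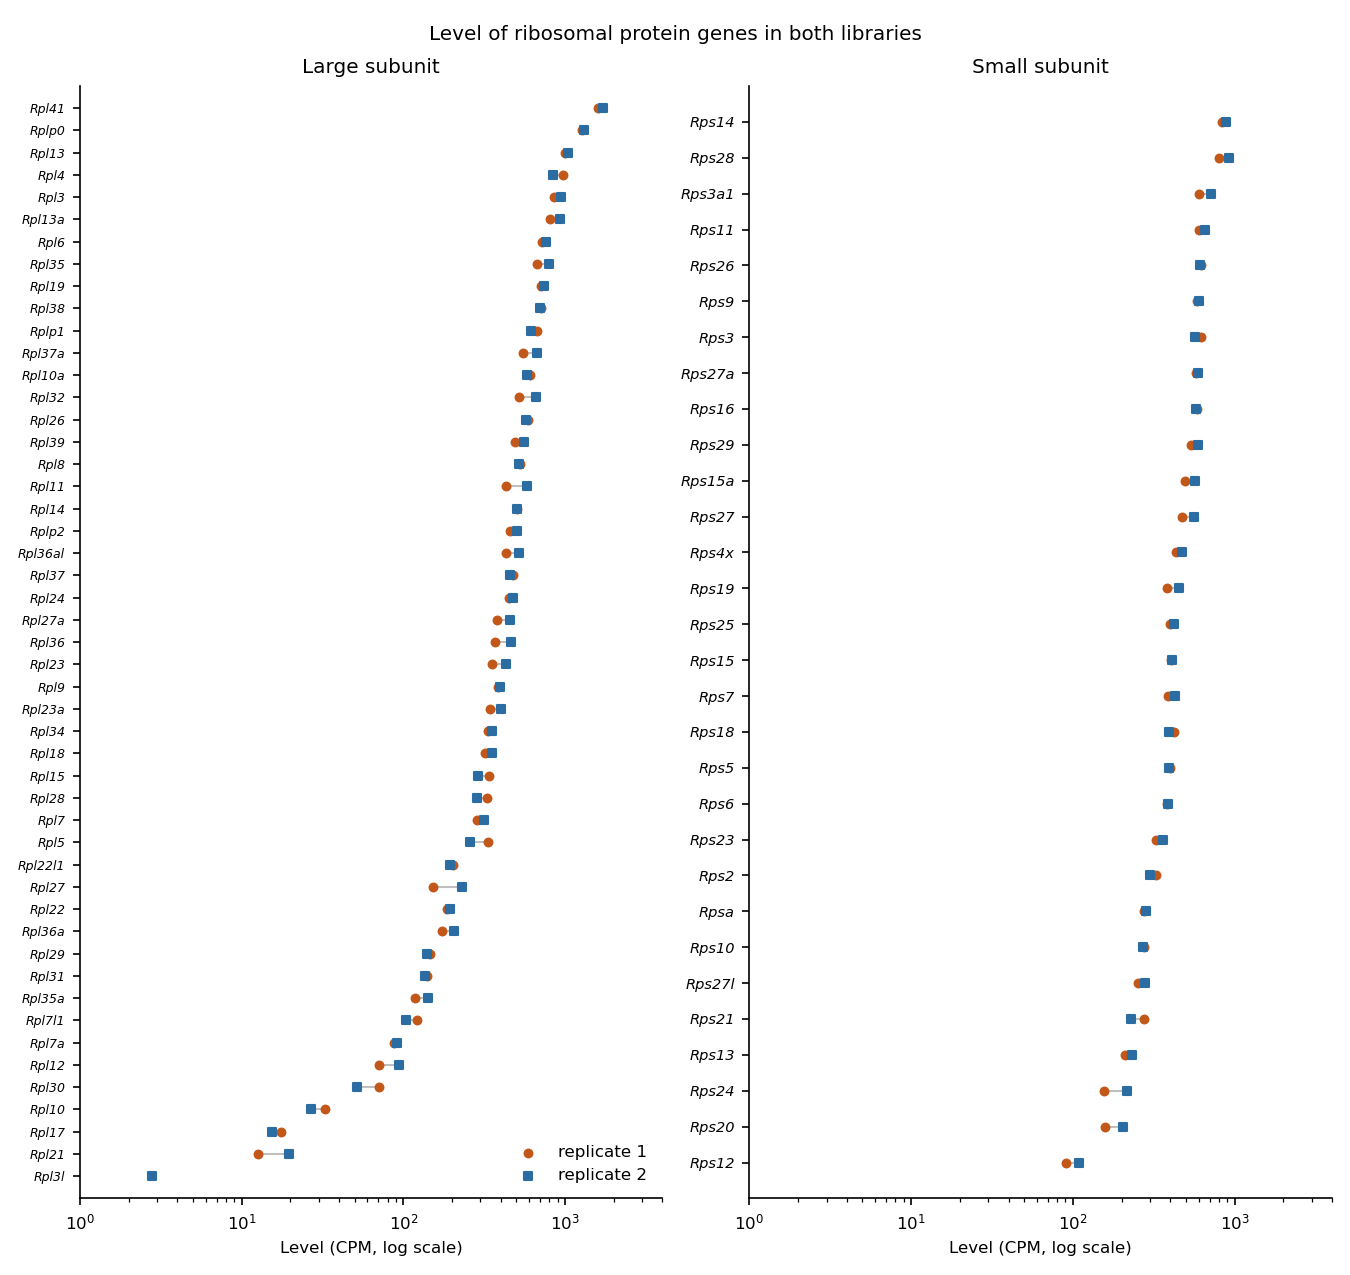
Level in CPM on a log axis of the members named on the axis, large subunit and small subunit in separate panels ordered by mean level, with replicate 1 as orange circles and replicate 2 as blue squares. The quartiles lie at 268 and 593 CPM. Rpl41 stands highest of those drawn, and Rpl21, Rpl17 and Rpl10 lie below 50 CPM. Rpl3l has no point for replicate 1, where it had 0 reads.

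Several of these low genes have processed copies elsewhere in the genome that took most of the reads. Copies were genes with reads that are annotated as processed pseudogenes, or named as such after an Rpl or Rps gene, and that aligned best to a member's transcript with at least 90% identity over at least 80% of the copy. This step was chosen after the levels were seen. In all, 189 copies of 70 members were read, with 3006 counts in replicate 1 and 5836 in replicate 2. Of the reads on members and copies together these are 16.9% in replicate 1 and 17.1% in replicate 2. Of the copies' reads, 99.9% in replicate 1 and 99.8% in replicate 2 were in models of 1 exon. The median copy was 99.1% identical to its member, so that assignment of a read to a copy or to its spliced parent is uncertain, and the alleles of the parental strains were not examined.

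Rpl21 (ENSMUSG00000041453.12, chr5:146832890-146837032, + strand) had 5 reads of its own in replicate 1 and 14 in replicate 2, whereas its 9 copies had 218 and 403, or 97.8% and 96.6% of the sum. Rpl10 had 13 and 19 reads against 163 and 334 on its copies, nearly all on Rpl10-ps3, a copy typed as protein-coding. Rpl17 had 7 and 11 against 79 and 144, and Rpl30 had 28 and 37 against 81 and 134. Rpl35a had 47 and 101 against 270 and 501, of which the copy Gm10243 took 211 and 374. Members of higher level showed the same order: Rps6, a target of S6 kinase, had 151 and 276 reads against 203 and 359 on copies, and Rps2 130 and 214 against 186 and 286. In both libraries 10 members had more reads on copies than on the gene itself. Of the 7 members under 100 CPM, 6 have copies with reads, beside 70 of all 82 members. Each of these 6 exceeded 100 CPM once the copies were added. The exception among the 7 was Rpl3l. Added reads can only raise a level, and the part of copies in the low levels was not tested.

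The bases that tell Rpl21 from Rpl21-ps15, its most read copy (121 and 236 reads), are shown because few positions separate them: 3 in 483 bases. Each pair gives 21 bases of mm10 with the differing base in capitals, Rpl21 at chr5:146835647-146835667, chr5:146835689-146835709 and chr5:146835892-146835912 (+), and the copy at chrX:151215304-151215324, chrX:151215262-151215282 and chrX:151215208-151215228 (−). The last pair compares Rpl35a with Gm10243 at chr6:48523663-48523683 (+), the only difference in 333 bases.
Rpl21, first: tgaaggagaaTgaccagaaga
Rpl21-ps15, first: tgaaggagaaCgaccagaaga
Rpl21, second: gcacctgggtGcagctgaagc
Rpl21-ps15, second: gcacctgggtAcagctgaagc
Rpl21, last: tgaggactaaTggaaaagagc
Rpl21-ps15, last: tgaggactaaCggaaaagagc
Rpl35a: atgtgtataaGgcaaaaaaca
Gm10243: atgtgtataaAgcaaaaaaca

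**Figure D2:**
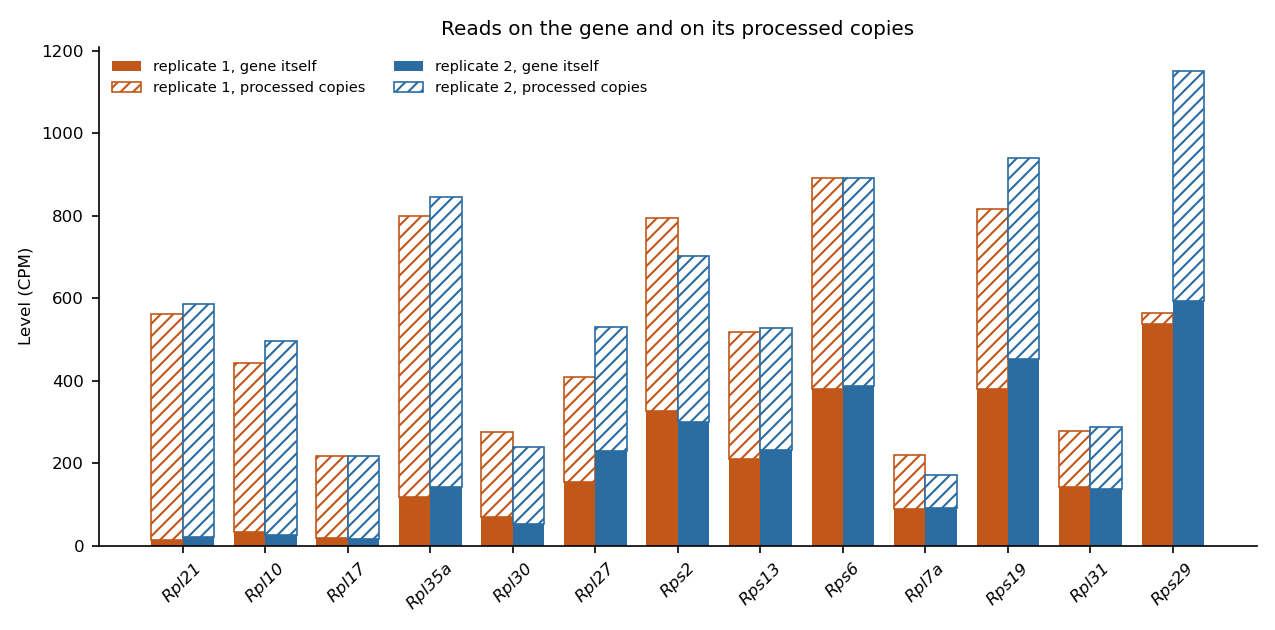
Stacked bars of the level in CPM of 13 members in each library, replicate 1 left of replicate 2, with reads on the gene itself as the solid lower part and reads on its processed copies as the hatched upper part. The hatched part is the larger one for Rpl21, Rpl10, Rpl17, Rpl35a and Rpl30 in both libraries, and for Rps29 it is tall in replicate 2 alone (398 reads against 11 in replicate 1).

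Between the libraries, 199 of the 9271 genes with at least 10 reads differed by an exact binomial test with Benjamini-Hochberg adjustment at 0.05, which is 2.15% of them, with 125 (1.35%) higher in replicate 1 and 74 (0.798%) in replicate 2. Among the members, 1 of 81 tested passed. Rpl11 (ENSMUSG00000059291.15, chr4:136028265-136053428, − strand), a protein of the particle that binds and inhibits Mdm2, had 171 reads in replicate 1 and 413 in replicate 2. These are 431 and 580 CPM, lower in replicate 1 by a log2 ratio of -0.43 (95% interval -0.70 to -0.17; exact binomial test, Benjamini-Hochberg adjusted p = 0.0475). The call did not hold with TMM scaling, with DESeq2 size factors or without the filter on low counts, where 0 members passed. At an unadjusted p under 0.05 stood 11 of 81 members, 9 of them higher in replicate 2, against 11.5% of all genes tested.

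The log2 ratios of the members, replicate 1 over replicate 2, ran from -0.58 for Rpl27 (61 and 164 reads; adjusted p = 0.156 by the same exact binomial test) to 0.45 for Rpl30. Their SD was 0.196, against 0.673 for all genes tested, which include many genes with fewer reads. Their median was -0.08, with -0.10 for the small subunit and -0.07 for the large, and the median of all genes was -0.03. Of the 81 members, 55 (67.9%) were lower in replicate 1, against 52.1% of all genes tested. Short transcripts in general were lower in replicate 1: in the quartile of genes with the shortest models, up to 1585 bases, which holds 75 of the members, 63.7% of all genes were lower in replicate 1 and the median was -0.14, while the median of the members there was -0.08. The part of read length in the members' ratios was not tested.

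**Figure D3:**
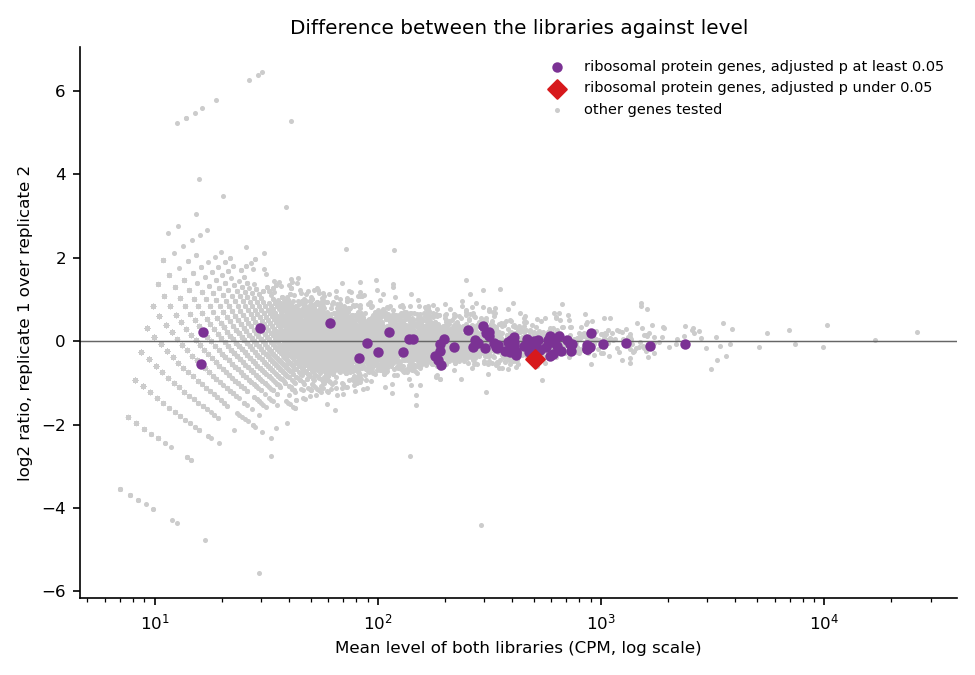
Log2 ratio of CPM, replicate 1 over replicate 2, against mean CPM on a log axis, with members in purple, other tested genes in grey and Rpl11 as a red diamond. The members form a narrow band between -0.58 and 0.45, most of them well above the 18.2 CPM of the median other protein-coding gene.

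One copy differed far more than any member. Gm14303 (ENSMUSG00000081344.5, chr2:172509521-172509691, − strand), a processed pseudogene, had 10 reads in replicate 1 and 397 in replicate 2, or 25.2 and 558 CPM. It was the 1 copy of 72 tested that passed, with a log2 ratio of -4.40 (exact binomial test, Benjamini-Hochberg adjusted p = 5.06e-58). Its parent Rps29, a zinc-binding protein of the small subunit (ENSMUSG00000034892.8, chr12:69157722-69159186, − strand), had 213 and 422 reads. The copy has 0 differences from Rps29-201 over its 171 bases, so that no base of it separates copy from gene.
With reads on copies added to each member, 2 of 81 members tested passed and Rpl11 did not. Without copies added, 2.15% of all genes tested had passed, so this count is near the share over all genes. Rps29 then had 224 reads in replicate 1 and 820 in replicate 2, with a log2 ratio of -1.03. Rpl5, which binds 5S ribosomal RNA together with Rpl11, had 243 and 314 reads with a log2 ratio of 0.47 (exact binomial test, Benjamini-Hochberg adjusted p = 0.0105).

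Genes that act with the ribosomal proteins gave 0 calls between libraries, beside 2.15% of all genes tested. At that share, 0 calls in lists of this size say little about these genes. Of 40 genes of ribosome biogenesis and RNA polymerase I, 39 were tested and 0 passed, with 12 lower in replicate 1 and a median log2 ratio of 0.21. They were read far less than the ribosomal proteins, with 0.321% of reads in replicate 1 and 0.298% in replicate 2. Examples are Nop10, a protein of the pseudouridylation particle, at 409 ± 43.8 CPM, the nucleolar chaperone Npm1 at 230 ± 34.8 CPM and the nucleolar protein Ncl at 222 ± 10.1 CPM. Of 18 other mRNAs known for a terminal pyrimidine run, 0 passed and the median log2 ratio was -0.05. Among them were the elongation factors Eef2 (1590 ± 109 CPM) and Eef1a1 (1178 ± 153 CPM), which stood in the range of the highest ribosomal proteins. The name rule leaves out ribosomal proteins with other names. Fau, made as a fusion with a ubiquitin-like protein, had 157 and 316 reads. Rack1, a scaffold on the small subunit, had 94 and 161. Neither passed the test.

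Some paralogs share a role with a better known member, and their shares were close in both libraries. Rpl36al held 71.4% of the reads of the pair with Rpl36a in replicate 1 (172 against 69 reads; Wilson interval 65.4 to 76.7) and 71.4% in replicate 2 (367 against 147; 67.3 to 75.1). Rpl22l1 and Rpl22 were read about equally, Rpl22l1 holding 51.9% (44.1 to 59.7) in replicate 1 and 49.8% (44.0 to 55.7) in replicate 2. Rps27l held 35.1% of its pair with Rps27 in replicate 1 and 33.3% in replicate 2. These shares leave out reads on processed copies. Copies of Rpl36a had 29 reads in replicate 1 and 42 in replicate 2, and copies of Rps27 had 62 and 153. With these added to the partner, the shares of Rpl36al and Rps27l would be lower. Rpl7l1 held 29.8% (23.3 to 37.3) in replicate 1 and 24.7% (20.1 to 29.8) in replicate 2 beside Rpl7. Rps4l, typed as a pseudogene, had 12 and 35 reads beside the X-linked Rps4x with 172 and 337. Rpl3l was at or near 0 beside Rpl3, with 0 of 337 reads in replicate 1, which allows a share of up to 0.890%, and 0.298% in replicate 2.

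The members were read mostly as annotated transcripts. Annotated transcripts held 88.6% of member reads in replicate 1 and 89.8% in replicate 2, against 76.5% and 76.5% for the other protein-coding genes. Unannotated combinations of annotated splice sites held 0.533% and 0.468%, against 4.87% and 4.88% for the others, and models with an unannotated splice site 0.937% and 0.903%, against 3.45% and 3.40%. Unspliced genomic models held 0.580% and 0.507%, against 5.85% and 5.71%. Incomplete splice matches, which cover only part of an annotated intron chain, were close to the other genes. They held 9.36% in replicate 1 and 8.32% in replicate 2, against 9.30% and 9.53%.

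A second annotated transcript was in use, here meaning at least 20% of annotated-transcript reads in both libraries, in 7 of 78 members (8.97%), against 319 of 3057 genes (10.4%) with at least 20 such reads in both. Rps28 was read as Rps28-205 (68.1% in replicate 1 and 71.1% in replicate 2) and Rps28-201 (31.0% and 28.5%). Rpl38 was read as Rpl38-204 (171 and 308 reads, 63.3% and 62.2%) and Rpl38-201 (81 and 158 reads), and Rpl22l1 as Rpl22l1-206 (65.8% and 65.4%) and Rpl22l1-201 (29.1% and 29.4%). In these 3 genes the introns of each pair differ at 1 splice site, shown here because the choice is the isoform result. The annotated transcripts of a pair also differ in where they start or end, so the form with the extra bases is not always the longer transcript. The bases that only 1 form of the pair keeps at this site are in capitals, in mm10 and joined across the intron. The extra bases lie after the stop codon in Rps28 (chr17:33823193-33823196, −), within the coding sequence in Rpl22l1 (chr3:28806500-28806502, +) and before the start codon in Rpl38 (chr11:114668610-114668626, +).
Rps28-205: aatcttgcagctgGTGGggttctggatatc
Rps28-201: aatcttgcagctgggttctggatatc
Rpl22l1-201: aacatggcgccgCAGaaagacaagaag
Rpl22l1-206: aacatggcgccgaaagacaagaag
Rpl38-201: atcgctGTGAGTGTGCTGGGCAGgtgcgg
Rpl38-204: atcgctgtgcgg
The extra stretch was thus in the major form of Rps28 and in the minor form of Rpl22l1 and Rpl38, in both libraries.

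In the other 4 genes the forms differ by a first exon or a retained intron. Rpl8, a protein near the peptidyl transferase centre, was read as Rpl8-201 (147 and 270 reads) and as Rpl8-202 (43 and 76 reads), which keeps the first intron and holds 22.6% and 22%. Rpl31-201 had 28 and 50 reads, and Rpl31-202, which has another first exon before the start codon, 11 and 23. Rpl30-202 had 11 and 21 reads and Rpl30-201 14 and 12, so that their order differed between libraries at these low counts. For Rpl5 the most read transcript, Rpl5-204, is annotated as a retained intron and had 92 and 114 reads, while the coding Rpl5-201 had 28 and 61. Rpl5 also led the members in reads on annotated retained-intron or nonsense-mediated decay transcripts, with 95 and 115, and Rpl10a (51 and 44), Rpl3 (17 and 12) and Rpl14 (5 and 18) were among the 5 leading members. Transcript use differed between libraries in 0 of 67 members by Fisher's exact test with Benjamini-Hochberg adjustment, against 3 of 1866 genes (0.161%), and 4 members had an unadjusted p under 0.05.

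**Figure D4:**
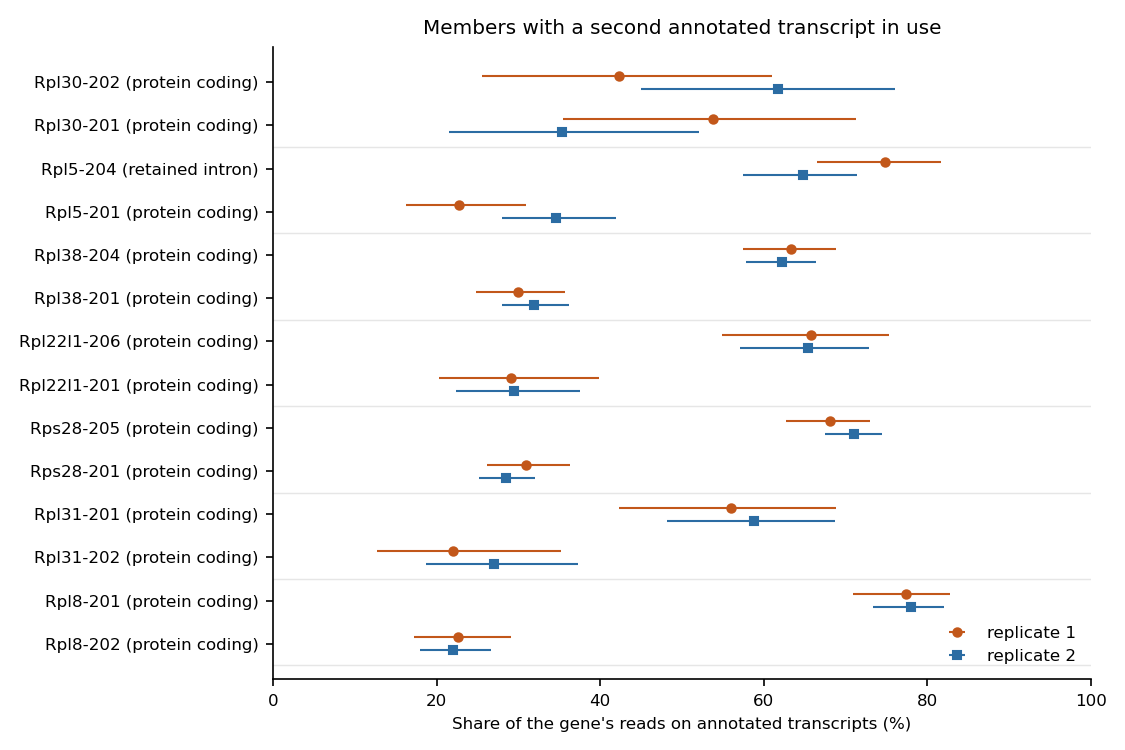
Share of annotated-transcript reads on the most read and second most read annotated transcript of the 7 members with a second transcript at 20% or more in each library, with 95% Wilson intervals, replicate 1 above replicate 2. The shares of Rps28, Rpl38, Rpl22l1 and Rpl8 nearly coincide between libraries, and those of Rpl30 have wide intervals.

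Unannotated spliced models of members were few and weakly read. Of 194 models with an unannotated splice site 26 were in both libraries, and of 123 unannotated combinations 23 were. The most read in the library with fewer was a model of Rpl7l1 with 16 reads in replicate 1 and 25 in replicate 2, with an exon of 225 bases at chr17:46778047-46778271 (−) in place of the annotated one of 220 bases. Rps24, a small-subunit protein (chr14:24487125-24496959, + strand), followed with 12 and 45 reads on a model of 6 exons, beside 28 and 62 reads on its leading annotated transcript Rps24-210. That model holds a 36-base exon at chr14:24494052-24494087. In Rps24-205 the exon at this start is 18 bases long and holds the annotated stop codon, in capitals in its first 30 bases here, printed because the longer exon carries the same stop codon.
Rps24 exon: aaaTGAaatacctagcaggtactgccattg
A model of Rplp2, the partner of Rplp1 in the stalk, had 4 and 9 reads and another 4 and 5, a model of Rpl13 had 5 and 4, and an unannotated combination of Rpl3 had 7 and 4. Rps27a, made as a fusion with ubiquitin, had 230 and 421 reads in all, of which 24 and 48 lay in a 1-exon genomic model of 54 bases.

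Intron-retaining models, in which 1 exon spans a whole intron of the gene's most read spliced transcript, held 4.21% of member reads in replicate 1 (Wilson interval 3.90 to 4.55) and 3.11% in replicate 2 (2.92 to 3.32). The other protein-coding genes had 5.77% and 5.53%, but in replicate 1 the direction of this difference depends on the models counted. In replicate 2 this share of reads was lower in members in each setting given here. With introns of every annotated coding transcript, members held 4.64% against 10.5% in replicate 1, and 3.55% against 10.5% in replicate 2. For Rpl5 the most read spliced transcript is Rpl5-204, so its 92 and 114 reads count as not retaining. Without 1-exon models, members held 4.08% against 3.84% for the others in replicate 1, and 2.97% against 3.79% in replicate 2. Without genomic models the values were 4.16% against 3.96% in replicate 1 and 3.00% against 3.92% in replicate 2. By gene, among those with at least 50 reads in each library, the median share was 2.5% in replicate 1 and 1.13% in replicate 2 for members, against 1.08% and 1.03% for the others. The share differed between libraries in 1 of 67 members tested, against 33 of 2506 genes (1.32%). Rpl22, an RNA-binding protein that mice survive without (ENSMUSG00000028936.15, chr4:152325742-152334071, + strand), had 11 retaining reads of 74 in replicate 1 (14.9%, 8.51 to 24.7) and 0 of 139 in replicate 2, where 0 allows a share of up to 2.16% (Fisher's exact test, Benjamini-Hochberg adjusted p = 0.000948). Of these reads 8 kept the first intron and 3 the second. The share of Rpl10a was 54 of 241 reads (22.4%) in replicate 1 and 52 of 412 (12.6%) in replicate 2, with an adjusted p of 0.0823 by the same Fisher's exact test.

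Among members with at least 50 reads in each library, Rpl27 had the highest mean retaining share, with 16 of 61 reads (26.2%) in replicate 1 and 32 of 164 (19.5%) in replicate 2. Rpl8 had 21.5% in both libraries. Rpl28 had 20.0% in replicate 1 and 13.3% in replicate 2, and Rps2, whose protein lies at the mRNA entry of the small subunit, 16.9% and 10.7%. Rpl6 had 14% and 12%, mostly in a model with 39 and 63 reads that starts in exon 1 and keeps the first intron, which holds the small nucleolar RNA gene Gm26205. Rps21 (14.5% and 9.20%), Rpl31 (10.7% and 11.3%) and Rpl29 (8.62% and 11%) were also among the 10 highest, as was Rpl10a. These shares, like those over all members, leave out reads on processed copies, which lack introns. Copies of Rpl27 had 101 reads in replicate 1 and 213 in replicate 2, and those of Rps2 186 and 286, whereas Rpl8 had 0. With copies in the total, the shares of Rpl27 and Rps2 would be lower. The part of copies in the retaining shares was not tested.

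Retention lay mainly in first introns. Over the 81 first introns of members, 472 of 13081 reads across them kept the intron in replicate 1 (3.61%, Wilson interval 3.30 to 3.94) and 705 of 25199 in replicate 2 (2.80%, 2.60 to 3.01). Over the 274 later introns, 277 of 47736 did in replicate 1 (0.580%) and 403 of 90811 in replicate 2 (0.444%). The other protein-coding genes had 1.52% and 1.46% in first introns, and 1.61% and 1.60% in later ones. Without Rpl8, Rpl6 and Rpl41, the members with most such reads, first introns stood at 2.94% and 2.20% and later introns at 0.609% and 0.464%. Counted by gene, 29 of 66 members (43.9%) had a higher share in the first intron than in the later ones in both libraries and 12 (18.2%) a lower one. Of 2008 other genes, 268 (13.3%) had a higher share and 866 (43.1%) a lower one. The lower limit for this count was 20 reads across. The median first-intron share of the other genes was 0 in both libraries, and a gene at 0 there cannot count as higher. The part of depth, of the number of introns and of reads placed on processed copies in these counts was not tested. These counts are a description of 2 libraries, with no test.

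First introns also differed by their place relative to the start codon. The 35 that lie wholly before it, in the 5′ untranslated region, were kept by 6.10% of the reads across them in replicate 1 (Wilson interval 5.50 to 6.77), against 4.75% in replicate 2 (4.36 to 5.18). The 46 that lie after it were kept in 1.80% (1.53 to 2.13) and 1.41% (1.23 to 1.61). The first group is also shorter, with a median of 322 bases against 457.5. Without Rpl8, Rpl6 and Rpl41, which belong to it, it stood at 4.89% in replicate 1 and 3.59% in replicate 2. The first intron of Rpl8 was kept in 43 reads and spliced in 147 in replicate 1, and kept in 76 and spliced in 273 in replicate 2. That of Rpl41 was kept in 37 and spliced in 584 in replicate 1, and kept in 57 and spliced in 1133 in replicate 2. Of the 10 introns with most retaining reads 9 were first introns, and the other was the third intron of Rpl10a, kept in 46 reads in replicate 1 and 39 in replicate 2.

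Many introns of members hold a small nucleolar RNA gene, which is released from the spliced intron. The 57 such introns, in 30 members, were kept by 0.832% of the reads across them in replicate 1 (Wilson interval 0.669 to 1.03), with 0.689% for replicate 2 (0.579 to 0.821), and the 298 without one in 1.31% (1.21 to 1.41) and 1.00% (0.944 to 1.07). Their median lengths were 405 and 353 bases. Later introns, which were kept less often than first introns, are a larger part of the introns with such a gene than of those without. The part of position and length in this difference was not tested. The first intron of Rpl6 alone gave 40 of the 80 retaining reads of the first group in replicate 1 and 63 of 125 in replicate 2. Without it, a choice made after seeing the data, the share was 0.428% in replicate 1 (0.315 to 0.583) and 0.352% in replicate 2 (0.275 to 0.451). Counted by intron, 61.4% of those with a small nucleolar RNA gene had at least 1 retaining read in either library, against 58.7% of those without.

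**Figure D5:**
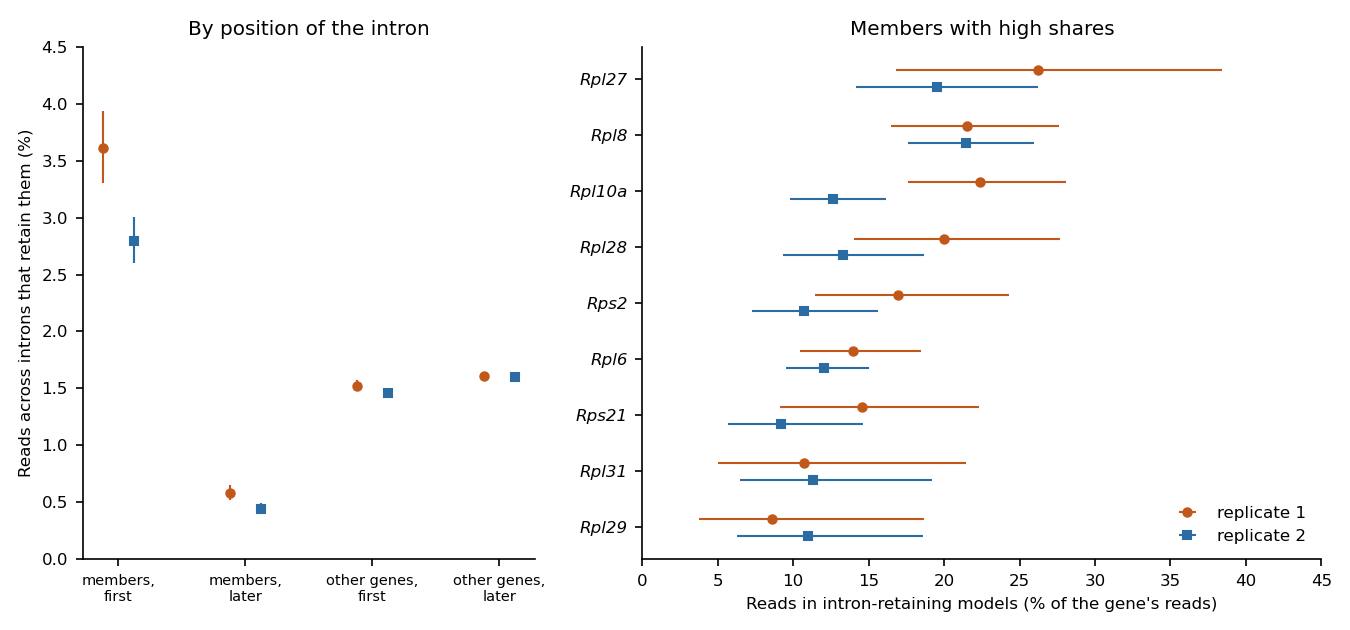
Left, share of reads across an intron that keep it, for first and later introns of members and of other protein-coding genes in each library, with 95% Wilson intervals; right, share of reads in intron-retaining models for members among the 10 with the highest share, with 95% Wilson intervals. Members stand at 3.61% and 2.80% in first introns and below 0.6% in later ones, whereas other genes stand between 1.46% and 1.61% in both.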

How the data were processed

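The deposited tables give counts, whole reads per transcript model in each library, per the file headers; the authors placed reads on mm10 with GENCODE M21 models extended by models named by TALON. The aligner is not given in the sources used here, nor are versions of the authors' programs. Classes were used as deposited, ERCC control RNAs were left out, and counts of all models were summed by gene. CPM used reads on annotated genes as total, 397176 in replicate 1 and 712032 in replicate 2. With 1 library per replicate, edgeR's quasi-likelihood test had no groups to compare, so a two-sided exact binomial test compared levels of genes with at least 10 reads over both libraries (pseudocount 0.5 for log2 ratios), and transcript use and intron retention by Fisher's exact test in genes with at least 20 reads in each, all with Benjamini-Hochberg adjustment over all genes tested at 0.05. The level test was run on simulated counts that held counting error only. That run cannot show how the test behaves with spread between libraries. Gene positions came from GENCODE M21, sequences from its transcripts and from RefSeq (GRCm38.p6); 62 members had a window. Copies were assigned with BLAST 2.17.0. Python 3.11.15, scipy 1.17.1, pandas 2.3.3, numpy 2.4.6, R 4.3.3, edgeR 4.0.16 and DESeq2 1.42.0 were used, the last 2 for scaling factors alone. Intervals are 95% Wilson intervals for shares. The named genes are the 12 highest, the 8 lowest and those at 0, every member that passed a test or used a second transcript, the 10 highest in retention, the 5 leading in decay or retained-intron transcripts and in unannotated models, the paralog pairs, Rps24 and Rps27a, and members named with copies, which were chosen after their values were seen. The members and lists were chosen with earlier results of these data known. Some of these items are not reported here. Other totals, scalings, filters, model classes and thresholds were tried.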

Additional observations from a re-analysis of the deposited data

How the results depend on the processing

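The members' share of gene reads, 3.85% as a mean, was 3.64% of all mouse reads, 4.46% with annotated transcripts only, 4.27% without 1-exon models and, chosen after seeing the data, 4.64% with copies added. Each replicate alone gave 3.73% to 3.96%. The number of members with reads was 81 to 82 by replicate. The 1 member that differed in level became 0 with TMM scaling, 0 with DESeq2 size factors, 0 without the filter on low counts and, chosen after seeing the data, 2 with copies added. The share in annotated transcripts, 89.2%, was 90.6% without 1-exon models and 88.6% to 89.8% by replicate. Incomplete splice matches, which cover an unbroken stretch of an annotated intron chain and lack the rest, held 8.84%, with 7.99% without 1-exon models and 8.32% to 9.36% by replicate. Intron-retaining models, 3.66%, were 4.09% with introns of every annotated coding transcript and 3.11% to 4.21% by replicate. A second transcript at 10% in each library was in use in 13 members, against 7 at 20%. Of the 12 highest members 5 stayed by CPM per kilobase. The causes were not tested. No paired analysis was possible because the labels give 1 group only. Depth limits the low members: 3 reads are 7.55 CPM in replicate 1 and 4.21 CPM in replicate 2.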
